A study of Homo sapiens with 8 samples.

Results

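Among the 26760 genes of the count table, 10 were followed across 8 RNA-seq libraries of the cell line LK2, which derives from a squamous cell carcinoma of the human lung: HSPA5, HSP90B1, CALR, PDIA4, PDIA6, DNAJB9, SDF2L1, XBP1, HERPUD1 and MANF. They were chosen by name, as chaperones of the endoplasmic reticulum (ER) and genes of the unfolded protein response. Earlier results of these data were known when they were chosen, and all 10 had enough counts to be tested. All cells were grown in RPMI-1640 with serum and carried a lentiviral vector. In the constitutive system the vector expressed GFP (2 libraries) or DNp63 (2 libraries), the p63 form without the N-terminal activation domain. The vector was pLEX_306 in replicate 1 and pLEX_307 in replicate 2 of both groups, and the labels do not name the promoters. In the inducible system all 4 libraries carried pLIX_403 with DNp63 under doxycycline control, and the cells were kept for 6 days without the drug (uninduced, 2 libraries) or with 2 µg per ml of it (induced, 2 libraries). Separate infections or cultures are not stated for the replicates, so p-values measure only the spread between these libraries.

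The ER folds secreted and membrane proteins. When unfolded proteins build up there, the sensors IRE1, PERK and ATF6 signal to the nucleus: IRE1 splices the XBP1 messenger RNA, ATF6 is cleaved into a transcription factor, and PERK slows translation while favouring ATF4. XBP1 and the cleaved ATF6 switch on chaperones, folding enzymes and the machinery that sends misfolded proteins for degradation. The gene counts used here do not separate spliced from unspliced XBP1 messenger RNA.

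The libraries held 2758158 to 10372248 counts. Levels are given as CPM, counts scaled to a common library total, and compare a gene between libraries but not genes of different length. TP63, the gene overexpressed, had 0.739 and 1.91 CPM in the GFP libraries, 1850.1 and 3816 CPM in the constitutive DNp63 libraries, 12.7 and 14.8 CPM without doxycycline and 412 and 422 CPM with it, which follows the labels. Of the markers of squamous and basal epithelium, KRT14 had no count in any library, and KRT5 had at most 0.635 CPM outside the constitutive DNp63 libraries (398 and 18.8 CPM there), while SOX2, likewise typical of lung squamous tumours, was at 68.3 and 96.4 CPM there and at 278 to 575 CPM in the other 6. DSG3 was present in all 8 (5.51 to 79.9 CPM), KRT17 had at most 2.00 CPM, and KRT6A stood at 557 and 395 CPM with constitutive DNp63 against at most 26.2 CPM elsewhere. PKP1 was at 6.86 and 33.0 CPM with constitutive DNp63 and at most 1.61 CPM elsewhere. The epithelial genes EPCAM, KRT8, KRT18 and CDH1 were present in every library. The 4 plasma cell markers, a type that secretes much protein, included 3 with no count (JCHAIN, MZB1 and TNFRSF17), while the fourth, SDC1, was at 253 to 470.3 CPM in the 8 libraries. Fibroblast markers summed to 8.28 to 30.5 CPM, immune markers to at most 3.71 CPM and endothelial markers to at most 2.33 CPM, and COL3A1, DCN, CD3E, MS4A1, CDH5 and PECAM1 had no count. In such bulk libraries a smaller share of expressing cells and less RNA per cell cannot be told apart.

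The promoters of 6 of the 10 genes hold a letter-perfect ER stress element, the sequence through which ATF6 and XBP1 are known to act, and these stretches are shown to place the element in each. PDIA4, PDIA6, DNAJB9 and MANF held no exact match in the single window searched for each gene, and other starts were not searched. The sequences are from RefSeq (GRCh38.p14), which holds a window of 300 bases for all 10 genes, from 250 before to 50 after the start. They are read 5′ to 3′ on the strand of the gene, with the fixed letters of the element in capitals.

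HSPA5, chr9:125241375-125241425, minus strand, 82 to 32 bases before the start: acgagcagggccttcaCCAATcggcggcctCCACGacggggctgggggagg
HSP90B1, chr12:103930200-103930355, plus strand, 210 to 55 bases before the start: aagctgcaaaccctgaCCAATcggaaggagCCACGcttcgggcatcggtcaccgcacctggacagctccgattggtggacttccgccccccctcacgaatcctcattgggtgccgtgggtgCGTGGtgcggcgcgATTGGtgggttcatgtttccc
CALR, chr19:12938368-12938418, plus strand, 241 to 191 bases before the start: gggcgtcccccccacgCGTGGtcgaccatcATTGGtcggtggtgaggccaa
XBP1, chr22:28800587-28800637, minus strand, 68 to 18 bases before the start: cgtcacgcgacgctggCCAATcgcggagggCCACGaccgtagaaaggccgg
HERPUD1, chr16:56932009-56932051, plus strand, 133 to 91 bases before the start: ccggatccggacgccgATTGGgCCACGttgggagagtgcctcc
SDF2L1, chr22:21642098-21642140, plus strand, 204 to 162 bases before the start: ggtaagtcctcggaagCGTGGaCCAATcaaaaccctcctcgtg

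The element known as ERSE, searched on both strands as CCAAT, any 9 bases and CCACG, was found in 4 of the 10 windows (HSPA5, HSP90B1, CALR and XBP1) and in 27 of 35116 promoter windows of the table, or 0.0769%. HSP90B1 holds 1 copy on each strand. The related ERSE-II, searched on both strands as ATTGG, any 1 base and CCACG, was found in 2 of the 10 (HERPUD1 and SDF2L1) and in 19 of the 35116 windows, or 0.0541%. No gene of the 10 holds both. Both elements were first described on promoters of this kind, so their presence here is a description and not independent evidence. A match is not a measured binding site. The letters TGACGTGG, known as the UPRE core and searched in the same way, were in none of the 10 windows and in 0.729% of all of them.

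HSPA5 encodes BiP, the Hsp70 chaperone of the ER that also holds the 3 sensors in check. Its level was 1939 and 394 CPM in GFP replicates 1 and 2 and 1427 and 4192 CPM in DNp63 replicates 1 and 2. In the inducible system it was 375 and 374 CPM uninduced and 419 and 383 CPM induced. DNp63 replicate 2 was the highest library, GFP replicate 2 sat near the inducible libraries, and the GFP and DNp63 groups overlapped. HSP90B1 encodes GRP94, the Hsp90 chaperone of the ER. It was at 702 and 316 CPM with GFP, 377 and 1372 CPM with DNp63, 305 and 301 CPM uninduced and 386 and 334 CPM induced. CALR encodes calreticulin, a calcium-binding chaperone that holds glycoproteins, and had 1447 and 680.2 CPM with GFP and 405 and 3645 CPM with DNp63. It was at 779 and 747 CPM uninduced and 804 and 789.6 CPM induced. For CALR the 2 DNp63 libraries were thus the lowest and the highest of all 8, 8.99-fold apart.

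PDIA4 and PDIA6 are protein disulfide isomerases, which form and rearrange disulfide bonds in the ER. PDIA4 was at 272 and 206 CPM with GFP, 129.7 and 664 CPM with DNp63, 209.5 and 209 CPM uninduced and 245 and 258 CPM induced. PDIA6 was at 324 and 280.0 CPM with GFP, 222 and 595 CPM with DNp63, 277 and 283 CPM uninduced and 302 and 299 CPM induced. Both had DNp63 replicate 1 as their lowest and DNp63 replicate 2 as their highest library. MANF, a secreted factor that binds BiP and is released under ER stress, had the same order. Its values were 179 and 95.7 CPM with GFP, 84.9 and 359 CPM with DNp63, 121 and 109 CPM uninduced and 127 and 117 CPM induced.

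SDF2L1 and DNAJB9 are partners of BiP: SDF2L1 forms a complex with ER DnaJ proteins, and DNAJB9 (ERdj4) is itself a DnaJ protein that restrains IRE1. SDF2L1 had 39.5 and 19.9 CPM with GFP and 6.29 and 53.0 CPM with DNp63, from 22 and 273 counts. It had 19.7 and 16.2 CPM uninduced and 29.5 and 13.97 CPM induced, and so varied more within the induced group than any other of the 10 genes. DNAJB9 had the fewest counts, 6 to 35 a library. It was at 2.96 and 3.81 CPM with GFP, 2.86 and 6.79 CPM with DNp63, 1.21 and 2.04 CPM uninduced and 3.33 and 3.15 CPM induced.

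XBP1, the transcription factor of the IRE1 branch, and HERPUD1, a membrane protein of ER-associated degradation, had another order. XBP1 was highest in GFP replicate 1, with 329 CPM against 85.6 CPM in GFP replicate 2, and had 185 and 245 CPM with DNp63. Its inducible libraries held 107 and 106 CPM uninduced and 103 and 91.5 CPM induced. HERPUD1 was at 302 CPM in GFP replicate 1, 60.6 CPM in GFP replicate 2, and 339.7 and 285 CPM with DNp63. It was at 69.6 and 65.9 CPM uninduced and 84.5 and 71.6 CPM induced. For both genes GFP replicate 1 and both DNp63 libraries lay above all inducible libraries, and GFP replicate 2 lay below them.

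**Figure D1:**
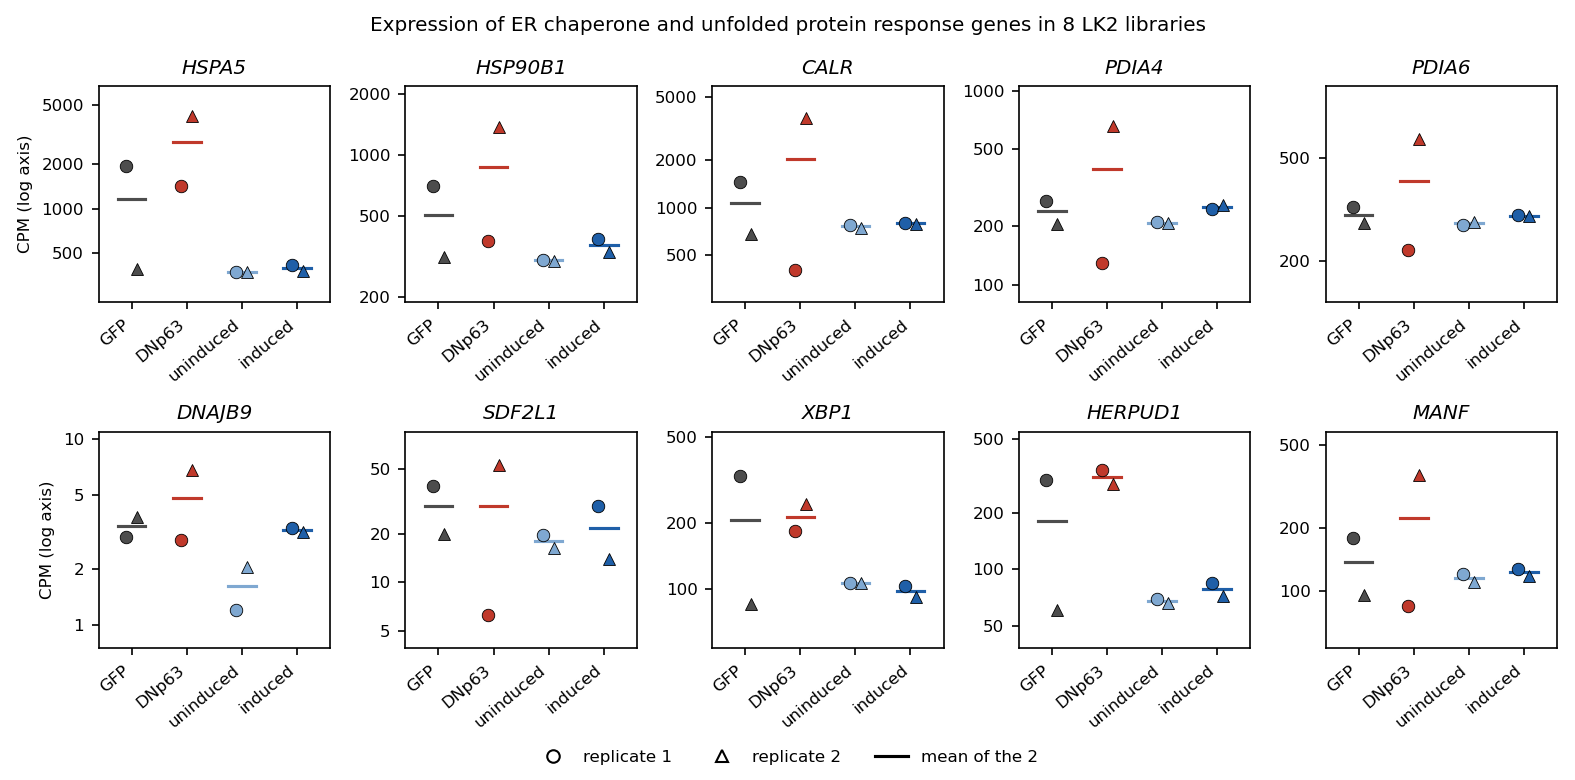
Level of each of the 10 genes in CPM (log axis, a separate scale per gene) in the 4 groups of LK2 libraries, with circles for replicate 1, triangles for replicate 2 and lines for the mean of the 2. DNp63 replicate 2 is the highest library for 8 of the 10 genes, while the inducible libraries lie close together for most.

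DNp63 replicate 2 was the highest library for 8 of the 10 genes, and for 9 of 10 it exceeded DNp63 replicate 1. The 10 genes summed to 11416 CPM in DNp63 replicate 2, 3179 CPM in DNp63 replicate 1, 5537 CPM in GFP replicate 1 and 2142 CPM in GFP replicate 2, against 2213 to 2504 CPM in the inducible libraries. GFP replicate 1 was past 2-fold above GFP replicate 2 in 5 of the 10 genes, against 8.05% of all genes, and below it in none (4.75%). DNp63 replicate 1 was past 2-fold below DNp63 replicate 2 in 8 of the 10, against 7.79% of all genes, and above it in none (6.41%). Between the uninduced libraries no gene of the 10 was past 2-fold in either direction (0.886% higher and 1.35% lower of all genes), and between the induced ones SDF2L1 alone was, with replicate 1 higher (2.47% higher and 3.5% lower of all genes). Within the 4 constitutive libraries the highest level of a gene was 2.38 to 10.6 times the lowest, with a median of 4.73. Within the 4 inducible libraries it was 1.08 to 2.76 times, with a median of 1.20. TP63 was also highest in DNp63 replicate 2, at 3816 CPM, and its part in the result was not tested.

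The first comparison asks whether these genes differed between constitutive DNp63 and GFP. None of the 10 passed the edgeR quasi-likelihood test, adjusted over all 12303 genes tested, at a threshold of 0.05, while 8.16% of all genes were called (4.17% higher and 3.99% lower). None had an unadjusted p below 0.05, against 23% of all genes, and the DESeq2 Wald test called none either. All 10 log2 fold changes were positive, with a median of 0.72 against 0.01 over all genes. HSPA5 had the largest, 1.27 ± 0.61 (SE, n = 2 per group), with a 95% interval of −0.07 to 2.61 and an adjusted p of 0.243 by edgeR. CALR had 0.93 ± 0.70 (−0.60 to 2.47), HERPUD1 0.80 ± 0.51 (−0.33 to 1.92) and HSP90B1 0.79 ± 0.49 (−0.30 to 1.87). PDIA4 and MANF followed at 0.74 and 0.71, DNAJB9 at 0.52 and PDIA6 at 0.44, and SDF2L1 and XBP1 were at 0.05 and 0.06. The adjusted p values of the 10 ran from 0.243 to 0.977. The intervals leave room for changes of more than 2-fold upward in every gene of the 10, so the comparison does not show that levels were alike. With the replicate number of each system as a block, which in the constitutive libraries is the vector, none of the 10 was called, 9 were positive and the median was 0.39, with 1400 instead of 1004 genes called in all. CALR was then at 0.30, PDIA4 at 0.33, SDF2L1 at −0.29, XBP1 at 0.33 and HERPUD1 at 1.18. The GFP and DNp63 libraries overlapped for all 10, although the groups did not overlap for 44.4% of all genes.

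**Figure D2:**
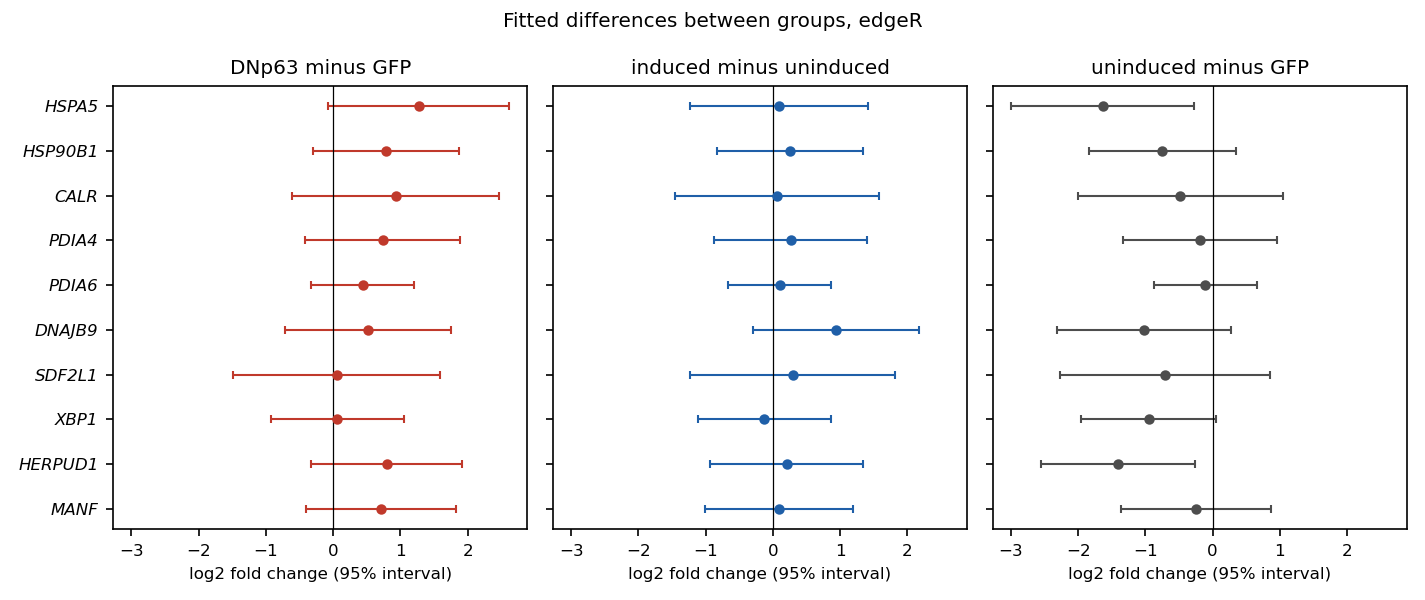
Log2 fold changes of the 10 genes with 95% intervals from the edgeR fit, for constitutive DNp63 minus GFP, induced minus uninduced and uninduced minus GFP (n = 2 libraries per group). The intervals are wide in all 3 comparisons, and no gene passed the adjusted threshold in any of them.

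Within the pairs of libraries that share a vector the constitutive comparison went opposite ways, a difference that was not tested. With pLEX_307, DNp63 exceeded GFP in all 10 genes and past 2-fold in 9, where 11.4% of all genes were past 2-fold higher and 8.09% lower. The median log2 difference was 1.79, on the scale of log2 CPM with a prior count of 2. HSPA5 was 10.6 times higher in DNp63 than in GFP, CALR 5.36 times, HERPUD1 4.70 times, HSP90B1 4.35 times and MANF 3.75 times. With pLEX_306, DNp63 was below GFP in 9 of the 10, past 2-fold in 4, where 9.36% of all genes were past 2-fold lower, and in none was it past 2-fold above (8.93% of all genes). The median was −0.86. The 4 were SDF2L1, at 0.159 of the GFP level, CALR (0.280), MANF (0.475) and PDIA4 (0.478). HERPUD1 was the exception, at 1.13 times the GFP level. Each pair is 1 library against 1, so these differences carry no replicate check.

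**Figure D3:**
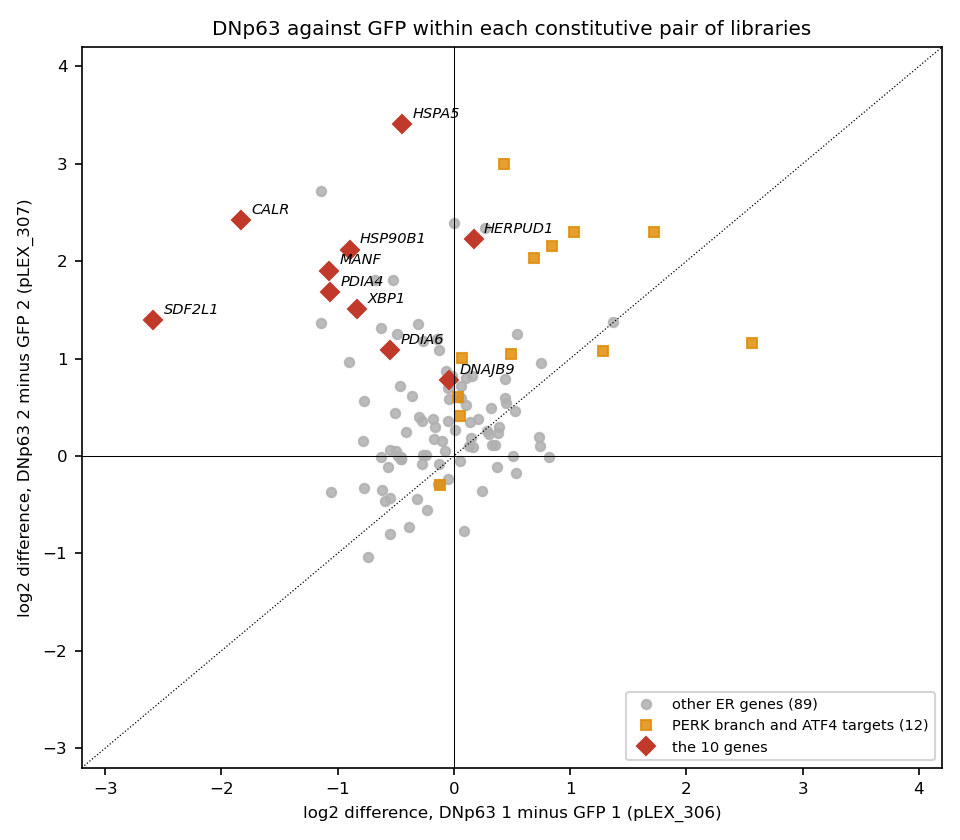
Log2 difference of DNp63 minus GFP in the pLEX_306 libraries (horizontal) and the pLEX_307 libraries (vertical) for the 10 genes (red), 89 other ER genes (grey) and 12 genes of the PERK branch and ATF4 targets (orange); the dotted line marks equal differences. Of the 10 genes, 9 lie in the upper left, higher with pLEX_307 and lower with pLEX_306, while 11 of the 12 orange genes are positive in both pairs.

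Leaving out single libraries moved the fold changes in both directions. Without DNp63 replicate 1 all 10 genes were positive, with a median log2 fold change of 1.18. Without DNp63 replicate 2, 8 of the 10 were negative, with a median of −0.43. CALR, for example, had 1.77 in the former and −1.39 in the latter. Without GFP replicate 1 the median was 1.27, with HSPA5 at 2.83, XBP1 at 1.32 and HERPUD1 at 2.36. Without GFP replicate 2 the median was 0.32, with HSPA5 at 0.52 and HERPUD1 at 0.034. HSPA5 was at 0.30 without DNp63 replicate 2. In each of these fits the lone library of a group is assumed to vary like the other groups. Without a filter on low counts, HSPA5, HSP90B1, CALR, PDIA4, HERPUD1 and MANF were called higher, where 1791 instead of 1004 genes were called in all.

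**Figure D4:**
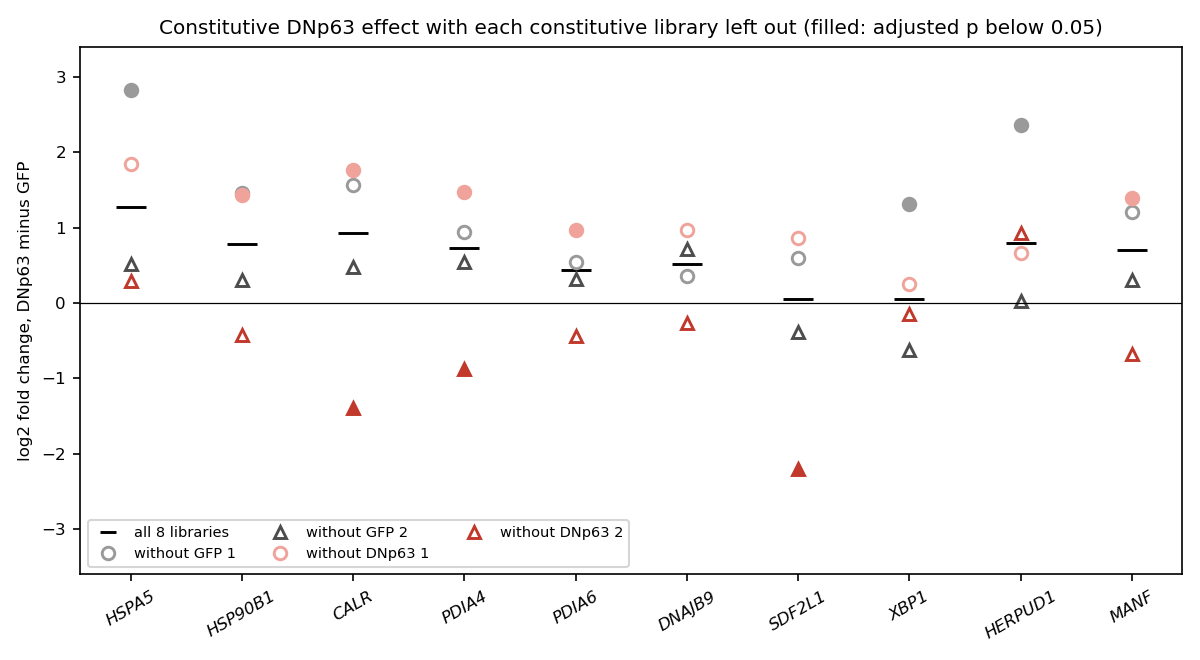
Log2 fold change of constitutive DNp63 minus GFP for each of the 10 genes with all 8 libraries (bar) and with each constitutive library left out (circles and triangles; filled where the adjusted p is below 0.05). Filled symbols lie above 0 without GFP replicate 1 or DNp63 replicate 1, and below 0 without DNp63 replicate 2.

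The second comparison asks what doxycycline-induced DNp63 did in cells with 1 common vector. None of the 10 genes was called by edgeR, against 0.284% of all genes (0.236% higher and 0.0488% lower), none had an unadjusted p below 0.05 (6.04% of all genes), and DESeq2 called none. The log2 fold changes ran from −0.13 for XBP1 to 0.93 for DNAJB9, with a median of 0.15 against 0.00 over all genes. DNAJB9 had 0.93 ± 0.56 (SE, n = 2 per group; 95% interval −0.30 to 2.17; adjusted p = 0.945 by edgeR). HSPA5 had 0.10 ± 0.60 (−1.23 to 1.42) and PDIA6, with the narrowest interval, 0.10 ± 0.35 (−0.66 to 0.86). Both induced libraries lay above both uninduced ones for 7 genes (HSPA5, HSP90B1, CALR, PDIA4, PDIA6, DNAJB9 and HERPUD1), a state found in 22.9% of all genes, and below them for XBP1, as in 24% of all genes (46.9% in either direction). HSPA5 was at 375 ± 0.590 CPM (SD, n = 2) uninduced and 401 ± 25.6 CPM induced, and PDIA4 at 209 ± 0.545 and 251 ± 9.03 CPM. With only the 4 inducible libraries in the fit, 771 genes were called instead of 35 and still none of the 10. The lowest adjusted p in that fit was 0.124, for PDIA4 (log2 fold change 0.27). Doxycycline itself and the DNp63 it induces cannot be told apart in this design.

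The test of the difference between the constitutive and the induced effect called none of the 10, against 0.545% of all genes (0.293% higher and 0.252% lower), none had an unadjusted p below 0.05 (12.2% of all genes), and DESeq2 called none. The difference, induced minus constitutive, was −1.17 ± 0.85 for HSPA5 (95% interval −3.05 to 0.70; n = 2 per group; adjusted p = 0.643 by edgeR) and ran from −1.17 to 0.41 over the 10. PDIA4 was at −1.21 without DNp63 replicate 1 and at 1.14 without DNp63 replicate 2. The median of the 10 was −1.17 without GFP replicate 1, against −0.50 with all libraries. Averaged over both systems none of the 10 was called by edgeR or DESeq2, nor had an unadjusted p below 0.05 (19.1% of all genes), where 5.67% of all genes were called (3.26% higher and 2.41% lower). The averages ran from −0.03 for XBP1 to 0.73 for DNAJB9, with a median of 0.50, or 0.28 with the block. The median was 0.79 without DNp63 replicate 1, 0.65 without GFP replicate 1 and −0.16 without DNp63 replicate 2.

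The third comparison sets the control groups of the 2 systems side by side. These groups differ in vector and in insert. TP63 also differed, at 12.7 and 14.8 CPM uninduced against 0.739 and 1.91 CPM with GFP, and the parts of these cannot be told apart. The fitted level of uninduced cells was below that of GFP cells in all 10 genes, with a median log2 difference of −0.73 against −0.01 over all genes. HSPA5 (−1.64 ± 0.61; n = 2 per group; 95% interval −2.99 to −0.28) and HERPUD1 (−1.41 ± 0.52; −2.56 to −0.26) had unadjusted p values of 0.0224 and 0.0211, where 9.1% of all genes were below 0.05. None of the 10 was called by edgeR, the adjusted p values being 0.473 and 0.471 for these genes, and none by DESeq2. Of all genes 0.00813% were called. For HSPA5, HSP90B1, DNAJB9 and SDF2L1 both uninduced libraries lay below both GFP ones, as for 21.9% of all genes, with none of the 10 in the opposite state (22% of all genes; 43.9% in either direction). The median difference rested on GFP replicate 1: without it the median was 0.01 and 6 of the 10 were higher in uninduced cells. Without GFP replicate 2 the median was −1.03. HSPA5, HSP90B1, SDF2L1 and DNAJB9 stayed lower in uninduced cells whichever library was left out, and DNAJB9 ran from −1.48 to −0.74.

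Each constitutive group has 1 library of pLEX_306 and 1 of pLEX_307, so the vector could be tested with the DNp63 state held in the model. It cannot be told apart from anything else that differed between replicates 1 and 2. HERPUD1 had a difference, pLEX_306 minus pLEX_307, of 1.25 ± 0.35 on the log2 scale (n = 2 per vector; 95% interval 0.48 to 2.01), with an unadjusted p of 0.00385 that did not hold after adjustment (adjusted p = 0.0698 by edgeR). XBP1 had 0.75 ± 0.39, and HSPA5 0.36 ± 0.67. The other 7 were negative, from −0.36 for HSP90B1 to −1.04 for CALR. None of the 10 was called by edgeR, nor by DESeq2 among the 9 it tested, where edgeR called 3.97% of all genes (2.39% higher and 1.58% lower). No other gene of the 10 had an unadjusted p below 0.05, against 20.4% of all genes. The model takes the vector difference to be the same with GFP and with DNp63, while the difference between the replicates had opposite signs in the 2 groups for 8 of the 10. HSPA5 was 4.92 times higher in replicate 1 than in replicate 2 with GFP, and 2.94 times higher in replicate 2 than in replicate 1 with DNp63. Without GFP replicate 1 or 2 the median of the 10 was −1.70 or −1.72, with 9 genes lower with pLEX_306. Without DNp63 replicate 1 or 2 it was 1.04 in both fits, with 9 genes higher. Each of these fits takes the vector difference from 1 library against 1, and its spread from the inducible pairs, which lay closer together.

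Genes around the 10 were counted in lists by role. Of 92 other ER genes 89 were tested, and in the constitutive comparison 1 was called higher and 1 lower, where 4.17% of all genes were called higher and 3.99% lower. The median log2 fold change was 0.13 against 0.01 over all genes. With the block 3 were called higher and 2 lower, where 1400 of all 12303 genes were called. The gene called higher was ATF6, the sensor cleaved into a transcription factor, at 56.9 and 43.8 CPM with GFP and 95.7 and 85.3 CPM with DNp63 (0.85 ± 0.22; n = 2 per group; adjusted p = 0.0425 by edgeR). The one called lower was PRDX4, an ER peroxiredoxin that uses peroxide to form disulfides, at 47.3 and 46.4 CPM with GFP and 28.3 and 22.5 CPM with DNp63 (−0.89 ± 0.22; adjusted p = 0.0354). ATF6 was not called without GFP replicate 2 (0.226), DNp63 replicate 1 (0.0824) or any inducible library (0.0818 to 0.0968). PRDX4 was called without DNp63 replicate 1 but not without any other library (0.062 to 0.0961). With only the 4 constitutive libraries in the fit neither was called (0.195 and 0.201). ERN1, the gene of IRE1, was at a low level, with 3.33 and 3.6 CPM in GFP and 9.14 and 9.89 CPM in DNp63 libraries. Its log2 fold change was 1.45 ± 0.44 (n = 2 per group; adjusted p = 0.0691 by edgeR), which misses the threshold. The groups do not overlap for ERN1, with DNp63 higher, a state found in 22.4% of all genes (44.4% in either direction). The third sensor gene, EIF2AK3 (PERK), was at 13.7 and 6.56 CPM with GFP and 7.14 and 13.2 CPM with DNp63, which overlap. It is named as the remaining sensor, after its values were seen.

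The list of 14 tested ER chaperones and cochaperones had no call in the constitutive comparison by edgeR, where 3 had an unadjusted p below 0.05 (23% of all genes, as for the other lists of this comparison), and 12 of 14 were positive with a median of 0.58. With the block 1 of the 14 was called higher, where 1400 of all 12303 genes were called. HYOU1, a large chaperone that exchanges the nucleotide of BiP, was at 834 and 405 CPM with GFP and 834 and 2134 CPM with DNp63 (1.26 ± 0.40; n = 2 per group; adjusted p = 0.0824 by edgeR). HSPA13, another ER Hsp70, had 0.91 ± 0.27 (0.065). With pLEX_307, 7 of the 14 were past 2-fold higher in DNp63 than in GFP (11.4% of all genes), and with pLEX_306 none was (8.93%). Of 17 genes of ER-associated degradation, 3 were past 2-fold higher with pLEX_307 (SEL1L, SYVN1 and DERL3), against 11.4% of all genes. With pLEX_306 none was past 2-fold higher (8.93%), and DERL3 was past 2-fold lower (9.36%). DERL3 was near the floor, at 2.96 and 1.06 CPM with GFP and 1.14 and 3.30 CPM with DNp63. The list had no call by edgeR (2 at an unadjusted p below 0.05) and a median of 0.18. SEL1L, the scaffold of the degradation complex, had 53.2 and 23.3 CPM with GFP and 64.0 and 119.7 CPM with DNp63 and a log2 fold change of 1.3 ± 0.39 (n = 2 per group; adjusted p = 0.0696 by edgeR). The 13 transport genes and 9 glycan quality control genes had medians of −0.01 and −0.18 and no call by edgeR, with 1 gene each at an unadjusted p below 0.05. The 12 oxidative folding genes, PRDX4 among them, had a median of −0.06, and the 17 translocation genes had 0.13 with no call by edgeR (1 at an unadjusted p below 0.05). In the induced comparison no gene of these lists was called by edgeR, and 3 of the 89 had an unadjusted p below 0.05 (6.04% of all genes). In the vector comparison the peptidyl-prolyl isomerase gene FKBP2 was called lower with pLEX_306 (22.2 and 66.5 CPM with GFP and 27.1 and 79.7 CPM with DNp63; −1.57 ± 0.21; n = 2 per vector; adjusted p = 0.00196 by edgeR, and 0.161 with only the 4 constitutive libraries in the fit).

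The PERK branch and its ATF4 targets had the 2 DNp63 libraries in another order than most of the 10 genes. Their summed level was 3189 and 1416 CPM with GFP, 4829 and 2833 CPM with DNp63 and 1483 to 1499 CPM in the inducible libraries, so that replicate 1 exceeded replicate 2 in both constitutive groups. In the vector comparison 8 of 12 were called higher with pLEX_306 by edgeR, where 2.39% of all genes were, and the median was 1.5 against −0.60 for the 10 genes. Stress genes of this kind were already known from earlier results of these data to be higher in replicate 1, so the count is a description. DDIT3, the stress transcription factor CHOP, had 119 and 24.6 CPM with GFP and 245 and 123 CPM with DNp63 (pLEX_306 minus pLEX_307: 1.58 ± 0.25; n = 2 per vector; adjusted p = 0.00583 by edgeR). DDIT4, an inhibitor of mTOR signalling, had 277 and 46.4 CPM with GFP and 919 and 229 CPM with DNp63 (2.28 ± 0.18; 0.000129). ATF3, ASNS (asparagine synthetase) and CHAC1 (a glutathione-degrading enzyme) had 1.73, 1.43 and 1.82. HERPUD1 alone of the 10 genes was likewise higher in replicate 1 of both constitutive groups, at 4.98 times replicate 2 with GFP and 1.19 times with DNp63. With only the 4 constitutive libraries in the fit none of the 12 was called by edgeR, where 5 instead of 488 genes were called in all. Without a constitutive library the vector difference rests on 1 library against 1, with its spread taken from the inducible pairs. Such fits cannot check the calls of the vector comparison. In the constitutive comparison 2 of the 12 were called higher, against 4.17% of all genes, NUPR1 (50.2 and 56.5 CPM with GFP, 299 and 126.7 CPM with DNp63; 1.99 ± 0.38; n = 2 per group; adjusted p = 0.00976 by edgeR) and the phosphatase regulator PPP1R15A (1.21 ± 0.27; 0.0218). With the block the count was 7, where 1400 of all 12303 genes were called. It rose without GFP replicate 1 and fell without GFP replicate 2 or DNp63 replicate 1.

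The cytosolic heat shock list, the counterpart of the ER chaperones outside the ER, had no call among 13 genes in the constitutive comparison by edgeR (4 at an unadjusted p below 0.05, against 23% of all genes). With the block 2 of the 13 were called higher, where 1400 of all 12303 genes were called. HSP90AA1, the cytosolic Hsp90, was called higher in induced cells, at 508 and 647 CPM uninduced and 1803 and 1473 CPM induced (1.5 ± 0.2; n = 2 per group; adjusted p = 0.0156 by edgeR). That call was lost without any of the 4 inducible libraries (0.18 to 0.346). HSP90B1, its relative in the ER, had 0.25 ± 0.49 in the same comparison. Whether these changes differ between the 2 genes was not tested.

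Across the 8 libraries the 10 genes correlated with each other as a description. All 45 pairs had a positive Pearson r of log2 CPM, from 0.132 (SDF2L1 and HERPUD1) to 0.991 (PDIA4 and PDIA6), with a median of 0.705. CALR and MANF had 0.988, and HERPUD1 had its lower values with SDF2L1, PDIA4 (0.227) and PDIA6 (0.305). The points share libraries and depth, and DNp63 replicate 2 is far from the rest in most of them. Among 10097 other genes averaging 5 CPM or more, the 8 whose pattern was most like the mean standardised pattern of the 10 were MYO5A (r = 0.968 over 8 libraries), CRELD2 (0.967), DNAJC3 (0.964), TRAM1 (0.963), PLEKHM3 (0.949), DNAJB11 (0.945), ZNF747 (0.944) and ARSD (0.943). CRELD2, DNAJC3, DNAJB11 and TRAM1 are also in the ER lists above. CRELD2, an ER-resident folding factor, had 59.1 and 26.7 CPM with GFP and 26.6 and 178 CPM with DNp63. It was at 27.6 and 27.1 CPM uninduced and 23.1 and 32.3 CPM induced.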

How the data were processed

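Polyadenylated RNA of 8 LK2 libraries was sequenced from both ends, per the labels' protocols. The authors deposited raw counts per gene. Per the submitters' processing notes, TopHat2 2.1, HTSeq, SAMtools and DESeq2 were used with hg19; annotation and strand setting, not given in the sources used here, stay unknown, so reads of overlapping or antisense genes cannot be told apart. HSPA5, HSP90B1 and XBP1 have pseudogenes to which the authors' counting could have sent some of their reads. Library totals were 2758158 to 10372248 counts.

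Genes were kept by filterByExpr over the 4 groups (minimum count 10), which left 12303 of 26760. edgeR 4.0.16 under R 4.3.3 was fitted with TMM scaling, a mean per group and a spread shared by all 8 libraries (quasi-likelihood, legacy estimates); two-sided p-values were adjusted by Benjamini-Hochberg across every gene tested and called below 0.05. Standard errors were computed from the fold change and the F statistic of that fit, and 95% intervals from these errors and the t distribution. CPM (counts scaled to a common total) are relative to the scaled counts of tested genes, and log2 CPM use a prior count of 2. The vector comparison adds 1 term for pLEX_306. DESeq2 1.42.0, other scalings, no filter, the system alone, a replicate block and leaving out each library were tried, and edgeR without legacy estimates was added after the data were seen. The fit was also run on simulated data, and the outcome is not reported here. Replicates of a group differed beyond counting noise.

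The 10 genes and the lists were chosen with earlier results of these data known. Named besides the 10 were TP63, from each list up to 4 genes with the smallest p in the constitutive, induced or vector comparison or needed to explain a count of 5 or fewer, and the 8 genes of most similar pattern. The table lists SELENOS and UFD1 under the older symbols VIMP and UFD1L. Other genes named for a count were chosen after their values were seen.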

Additional observations from a re-analysis of the deposited data

How the results depend on the processing

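No gene of the 10 was called in any comparison under the scalings by DESeq2 size factors or upper quartiles, the DESeq2 Wald test, edgeR without legacy estimates (an alternative chosen after the data were seen), the replicate block or a fit of 1 system alone, where these were run. Without a filter on low counts the numbers of the 10 called were 6 (constitutive), 5 (average), 1 (difference), 3 (control), 7 (vector) and 0 (induced), though their fold changes moved little; the cause was not tested. Counts of all genes called went from 1004 to 1791 without the filter and 275 with only the 4 constitutive libraries in the constitutive comparison. In the induced comparison they went from 35 to 110 with DESeq2, 242 without the filter, 87 with the replicate block and 771 with only the 4 inducible libraries. The average went from 697 to 1372 without the filter. The difference went from 67 to 265 with DESeq2, 558 without the filter and 270 with the block. The control comparison went from 1 to 57, 245 and 19 in the same order. The vector comparison went from 488 to 1123 without the filter and 5 with only the 4 constitutive libraries.

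With each library left out in turn, the counts of all genes ran from 452 to 1438 (constitutive), 2 to 104 (induced), 225 to 1113 (average), 0 to 446 (difference), 0 to 43 (control) and 140 to 2029 (vector). Counts of the 10 ran from 0 to 5 (constitutive), 0 to 0 (induced), 0 to 5 (average), 0 to 2 (difference), 0 to 2 (control) and 0 to 7 (vector). The log2 fold changes that turned sign in such a fit had these ranges. In the constitutive comparison they were HSP90B1 −0.43 to 1.46, CALR −1.39 to 1.77, PDIA4 −0.88 to 1.47, PDIA6 −0.44 to 0.97, DNAJB9 −0.26 to 0.97, SDF2L1 −2.20 to 0.86, XBP1 −0.63 to 1.32 and MANF −0.68 to 1.39, while HSPA5 (0.30 to 2.83) and HERPUD1 (0.034 to 2.36) stayed positive. In the average they were HSP90B1 −0.088 to 0.86, CALR −0.66 to 0.92, PDIA4 −0.31 to 0.87, PDIA6 −0.17 to 0.54, SDF2L1 −0.95 to 0.58, XBP1 −0.38 to 0.60 and MANF −0.29 to 0.74. In the difference they were HSP90B1 −1.21 to 0.67, CALR −1.71 to 1.45, PDIA4 −1.21 to 1.14, PDIA6 −0.87 to 0.54, DNAJB9 −0.043 to 1.19, SDF2L1 −0.55 to 2.51, XBP1 −1.45 to 0.50, HERPUD1 −2.15 to 0.17 and MANF −1.30 to 0.77. In the control comparison they were CALR −0.92 to 0.17, PDIA4 −0.38 to 0.019, PDIA6 −0.21 to 5.9e-05, XBP1 −1.63 to 0.32, HERPUD1 −2.16 to 0.16 and MANF −0.64 to 0.26. In the vector comparison they were HSPA5 −1.57 to 2.30, HSP90B1 −1.88 to 1.15, CALR −3.18 to 1.09, PDIA4 −2.37 to 0.39, PDIA6 −1.44 to 0.21, SDF2L1 −3.08 to 0.99, XBP1 −0.42 to 1.94 and MANF −2.09 to 0.90. In the induced comparison SDF2L1 ran from −0.36 to 0.72.

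The labels number the replicates alike in all groups. Deviations of same-numbered libraries from their group means correlated with r = 0.22 over 12303 genes in the constitutive system and −0.03 in the inducible one. In the constitutive system the number also stands for the vector, and in the inducible system the labels tie it to nothing. With the replicate block the median of the 10 was 0.39 (constitutive), 0.15 (induced), 0.28 (average), −0.30 (difference) and −0.78 (control). SDF2L1 went to −0.29 in the constitutive comparison and −0.045 in the average, XBP1 to 0.10 in the average, and 1400 instead of 1004 genes were called in the constitutive comparison, none of the 10 among them. With 2 libraries a group, changes of 2-fold in the 10 genes lay inside most intervals, and DNAJB9, with 6 to 35 counts a library, was also limited by depth.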
